A study of Homo sapiens with 28 samples.

Results

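ONECUT2 silencing in hypoxia was examined in PC3, a prostate cancer cell line grown from a bone metastasis, which the study treats as neuroendocrine-like. The comparison rests on 4 RNA-Seq libraries of cells kept at 0.2% oxygen. The labels give 2 libraries with a control siRNA (siCtrl, replicates 1 and 2) and 2 with an siRNA against ONECUT2 (siOC2), of which replicate 1 received siRNA1 and replicate 2 received siRNA2. Each siRNA thus stands in 1 hypoxic library, so library and siRNA cannot be told apart within siOC2. The same 4 treatments in normoxia (4 libraries) served to test whether an effect differed with oxygen. The genes were those with at least 1 RPKM (read density scaled to gene length and library size) in at least 2 of the 8 PC3 libraries, which held for 12214 of 19662 genes listed. The whole series has 28 samples. The labels do not say whether libraries came from separate cultures. A p-value thus measures the spread between libraries of a group, pooled over both oxygen levels, which may be technical. Within siOC2 that spread also holds the difference between the siRNAs.

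ONECUT2 is a transcription factor with a cut domain and a homeodomain that acts in liver, pancreas and nervous system development and has been linked to castration-resistant and neuroendocrine prostate cancer. In hypoxia the prolyl hydroxylases that mark HIF alpha subunits for degradation lose activity, and the stabilised HIF dimers bind to short sites near genes of glycolysis, angiogenesis, pH control and matrix processing. The comparison asked which genes and processes depend on ONECUT2 while that response runs.

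The relative depth of the libraries, read from the smallest steps between low RPKM, was 0.971 and 0.382 for the siCtrl libraries and 0.348 and 0.88 for siRNA1 and siRNA2 in hypoxia, against 1 for siCtrl replicate 2 in normoxia. The hypoxic siRNA1 library was the shallowest of the 8, and low values are least precise there. Read counts were not used here, so no counting interval is given. Of 6 genes that mark PC3 cells, KRT8, KRT18, KRT19, VIM and CD44 were above 14 RPKM in every hypoxic library, and EPCAM read 3.70 to 19.1 RPKM. Of 8 luminal markers 4 were tested, whereas KLK2, KLK3 and FOLH1 did not reach the limit on low values. Of 28 neuroendocrine genes 11 were tested, among them NCAM1, whereas CHGA, CHGB, SYP and INSM1 did not reach it. Of 13 stromal, endothelial and immune markers, only COL1A1, LUM and CD68 were tested, and 0 were called.

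ONECUT2 itself, the target of the siRNAs, lies on the plus strand of chromosome 18 from 55102606 to 55158530 (GRCh37). Its hypoxic RPKM was 0.648 and 0.550 with siCtrl, 0.125 with siRNA1 and 0.214 with siRNA2. Both siOC2 libraries were below both siCtrl libraries, at low levels throughout. On the log2(RPKM + 0.1) scale used for all changes here, siOC2 minus siCtrl was -1.39 (SE 0.65), with a limma P of 0.0639 (adjusted p = 0.439), which misses the threshold for a call. In normoxia the values were 1.77 and 1.16 with siCtrl against 0.276 and 0.204. ONECUT2 reached 1 RPKM in the normoxic siCtrl libraries alone, so it entered the test through siCtrl libraries. The paralog ONECUT3 had 2.65 and 1.82 RPKM with siCtrl, 1.03 with siRNA1 and 1.42 with siRNA2, a difference of -0.81 that was not called either. ONECUT1 stayed below the limit on low values.

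Calls required more than a 2-fold change together with a limma P below 0.05 before adjustment. In hypoxia 482 genes fell on silencing (3.95% of those tested) and 434 rose (3.55%). With a Benjamini-Hochberg adjusted p under 0.05 these were 6 and 5 genes. Of the 434 that rose, 74 were under 1 RPKM in all 4 siCtrl libraries of both oxygen levels, and of the 482 that fell, 24 were under it in all 4 siOC2 libraries, so these passed the limit on low values through 1 group alone. The median change of all genes was -0.03. With upper-quartile scaling 428 fell and 522 rose, so whether more genes fell or rose depended on the scaling. The counts also depended on 1 library at a time. Counts in gene lists with 1 library left out are best read against those of all genes given next. Without siRNA1 417 genes fell and 1118 rose, and without siRNA2 1891 fell and 513 rose. Leaving out siCtrl replicate 1 gave 266 and 452, and leaving out siCtrl replicate 2 gave 352 and 212.

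**Figure D1:**
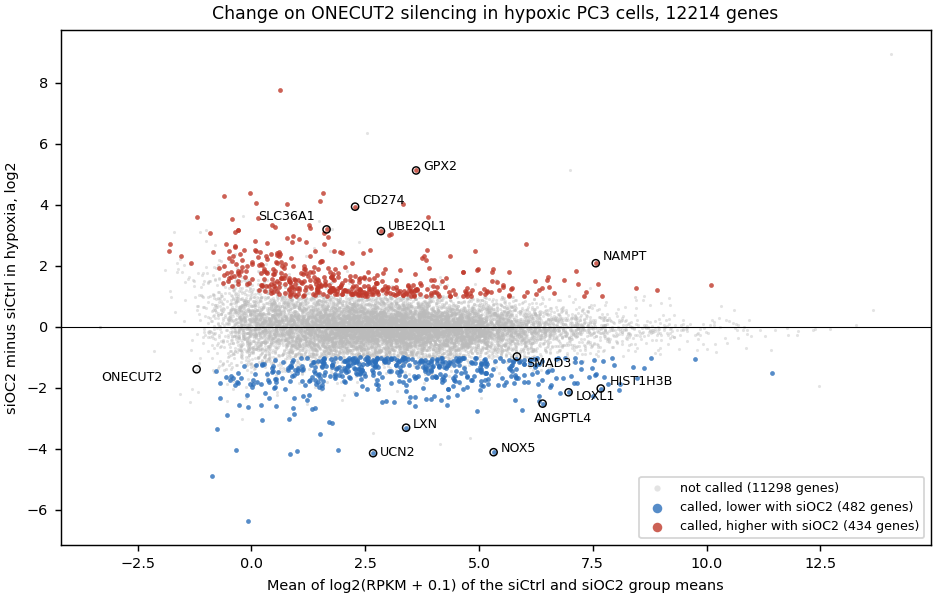
Each point is 1 of 12214 genes, with the average log2(RPKM + 0.1) of the siCtrl and siOC2 means in hypoxia on the horizontal axis and the change siOC2 minus siCtrl (log2) on the vertical axis. The 482 genes called lower are blue, the 434 called higher are red, and ONECUT2 (-1.39) and SMAD3 (-0.97) lie among the grey genes that were not called.

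The 2 siOC2 libraries in hypoxia were shifted as a whole in opposite directions. Over the genes tested, the median log2 value with siRNA1 and siRNA2 was 2.694 and 3.196 in hypoxia, but 3.152 and 3.156 in normoxia. Whether the siRNA or the library gave this shift was not tested. From the mean of the hypoxic siCtrl libraries, the median of all genes was -0.28 in the hypoxic siRNA1 library and 0.23 in the hypoxic siRNA2 library. Over 2-fold lower were 2207 genes (18.1%) with siRNA1 and 591 (4.84%) with siRNA2, and over 2-fold higher were 712 (5.83%) and 1538 (12.6%). After centring each library on its median, the counts were 1402 lower and 1178 higher with siRNA1, and 880 lower and 1030 higher with siRNA2. Values for each siRNA rest on 1 library and share the siCtrl libraries, so they are set side by side without a test and are best read against the median of all genes for the same siRNA.

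The strongest decrease by P was that of NOX5, a calcium-activated oxidase that makes superoxide. NOX5 had 183 and 146 RPKM with siCtrl, 7.64 with siRNA1 and 11.6 with siRNA2. Its libraries did not overlap, and the change was -4.11 (SE 0.29, limma adjusted p = 0.00498). The annotation of GRCh37 used here lists 2 overlapping loci of this name on the plus strand of chromosome 15, from 69222843 to 69355083 and from 69307034 to 69355102, whose reads the files do not separate. Urocortin 2 (UCN2), a peptide of the corticotropin-releasing factor family, read 27.2 and 24.1 RPKM with siCtrl and 0.862 and 2.104 with siRNA1 and siRNA2 (change -4.14, limma adjusted p = 0.0388). LXN, an inhibitor of carboxypeptidases, went from 34.4 and 31.7 RPKM to 3.43 and 3.09. STRA6, the membrane receptor for retinol-binding protein, went from 18.4 and 15.8 to 2.85 and 3.18. In all these genes both siRNAs gave values several-fold below either control.

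LOXL1, an enzyme that cross-links elastin, had 273 and 254 RPKM with siCtrl and 58.3 and 60.6 with siOC2 (change -2.14, limma adjusted p = 0.0492). LTBP3, which binds latent TGF-beta in the matrix, had 97.4 and 83.2 against 28.9 and 23.1 RPKM. TINAGL1, a matricellular protein, had 100.4 and 89.5 against 32.1 and 31.5 RPKM. The calcium-binding protein S100A2 fell by 1.92 and the kinase SNRK by 2.45 on the log2 scale. The histone gene HIST1H3B read 412 and 410 RPKM with siCtrl against 92.0 and 111 (change -2.02, limma adjusted p = 0.0388). Histone H3 genes have near-identical copies, and how reads were shared among them is uncertain.

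Among the 5 increases with an adjusted p under 0.05 was NAMPT, the rate-limiting enzyme of NAD salvage (chromosome 7, 105888744 to 105926412, minus strand, GRCh37). It had 107 and 78.2 RPKM with siCtrl, 369 with siRNA1 and 408 with siRNA2 (change 2.09, SE 0.23, limma adjusted p = 0.0388). SLC36A1, a proton-coupled amino acid transporter of lysosomes, rose from 1.01 and 0.863 RPKM to 8.38 and 10.5 (change 3.19, limma adjusted p = 0.0323). UBE2QL1, a ubiquitin-conjugating enzyme, rose from 2.45 and 2.15 RPKM to 26.2 and 16.8 (change 3.14, limma adjusted p = 0.0369). ARHGEF28, a guanine nucleotide exchange factor, went from 6.64 and 5.42 to 32.1 and 26.8 RPKM. SAMD12 had 1.01 and 0.859 against 7.59 and 9.99 RPKM.

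CD274, which encodes the checkpoint ligand PD-L1, had 1.93 and 0.537 RPKM with siCtrl and 15.2 and 19.8 with siRNA1 and siRNA2 (change 3.94, limma adjusted p = 0.0502). EDN1, the precursor of endothelin, had 2.25 and 2.52 against 18.1 and 11.3 RPKM. Also higher in both siOC2 libraries were WSB1, a SOCS box protein (change 1.85), BOD1, which acts in chromosome biorientation (1.90), NSMF (2.51) and RSL24D1, a factor of ribosome assembly (1.81).

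**Figure D2:**
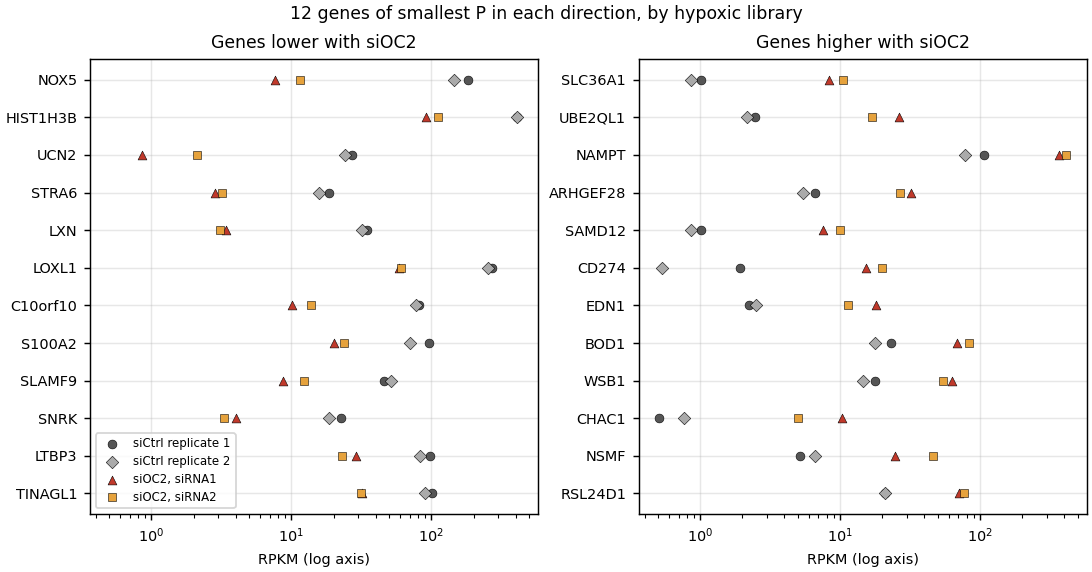
RPKM (log axis) of the 12 genes of smallest P in each direction, with 1 point for each of the 4 hypoxic libraries. In all 24 genes both siOC2 libraries lie on 1 side of both siCtrl libraries, as the selection required, and the siRNA1 and siRNA2 points lie closer to each other than to the controls.

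Among the genes that fell were many of mitosis. Of 54 G2/M markers tested, 14 fell and 1 rose, a share of 25.9% lower beside 3.95% of all genes. The 1 gene that rose was RANGAP1, a regulator of nuclear transport, named after its values were seen. The median change was -0.85, against -0.03 for all genes. It was -1.10 with siRNA1 and -0.53 with siRNA2, against -0.28 and 0.23 for all genes, so the list lay below the other genes by a similar distance with each siRNA. In 45 of the 54 genes both siOC2 libraries were below both siCtrl libraries, which held for 19.6% of all genes. In normoxia the median was -0.63 and 6 of the markers fell, where 1.59% of all genes fell. Of the 54, 0 had a called interaction of silencing and oxygen. Leaving out 1 hypoxic library changed the number that fell, for these markers and for all genes. The median of the markers was then -0.77 (without siCtrl replicate 1), -0.99 (without siCtrl replicate 2), -0.53 (without siRNA1) and -1.10 (without siRNA2). That of all genes was 0.06, -0.13, 0.23 and -0.28 in the same order.

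CKAP2L, a spindle protein, had 69.9 and 62.0 RPKM with siCtrl, 19.3 with siRNA1 and 21.2 with siRNA2 (change -1.70, SE 0.27). PSRC1, which binds microtubules, had 22.3 and 16.9 RPKM against 3.59 and 7.30 (change -1.90). HMMR, a hyaluronan receptor found at the spindle, had 43.5 and 34.9 against 8.44 and 15.9. In these 3 genes the groups did not overlap. The phosphatase CDC25C, which starts mitosis, fell from 8.69 and 6.44 RPKM to 1.34 with siRNA1 and 3.79 with siRNA2. The kinetochore motor CENPE read 19.5 and 26.9 RPKM with siCtrl, 2.25 with siRNA1 and 13.6 with siRNA2, and CENPF read 22.97 and 16.3 against 3.16 and 11.8. For CENPE and CENPF the siRNA1 library was far lower than the siRNA2 library.

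Many promoters of late cell cycle genes carry a CHR element, bound by the DREAM and MuvB complexes. In RefSeq windows from 250 bases before to 50 bases after the gene start (GRCh38.p14), TTTGAA or TTCGAA on either strand occurred in 32 of 44 matched G2/M markers (72.7%), against 18.6% of 398 matched genes that fell, 11.1% of 9936 matched genes tested and 16.6% of all 27305 promoters. CCAAT occurred in 68.2%, 40.5%, 36.9% and 35.7% of the same sets. An ONECUT core, ATTGAT or ATTGAC on either strand, occurred in 9.09% of the G2/M markers, 11.6% of the genes that fell, 7.27% of the genes tested and 11.9% of all promoters. Of the genes that rose under 80% were matched, so no share is given for them. The 250 bases before the start of the 2 called markers of smallest P with a CHR element are shown 5′ to 3′ on the gene's strand, with the CHR letters in capitals. The CKAP2L bases lie on the minus strand of chromosome 2 from 112764610 to 112764859, and those of PSRC1 on the minus strand of chromosome 1 from 109283146 to 109283395.
CKAP2L: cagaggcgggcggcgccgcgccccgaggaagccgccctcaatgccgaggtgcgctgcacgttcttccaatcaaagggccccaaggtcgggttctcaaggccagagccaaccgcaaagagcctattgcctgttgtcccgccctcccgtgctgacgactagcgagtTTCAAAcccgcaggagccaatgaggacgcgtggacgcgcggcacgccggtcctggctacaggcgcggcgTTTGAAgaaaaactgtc
PSRC1: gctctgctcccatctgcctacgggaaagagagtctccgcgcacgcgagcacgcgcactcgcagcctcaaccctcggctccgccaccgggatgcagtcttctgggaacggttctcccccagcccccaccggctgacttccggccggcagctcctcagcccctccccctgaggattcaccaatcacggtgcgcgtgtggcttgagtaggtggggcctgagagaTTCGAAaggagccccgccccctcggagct
In CKAP2L the nearest match began 17 bases before the gene start, and in PSRC1 29 bases before it. Such a match is a description of the letters.

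The kinetochore and the replication machinery showed the same direction with fewer calls. Beside 3.95% of all genes that fell and 3.55% that rose, 6 of 30 kinetochore and spindle checkpoint genes fell (20.0%) and 0 rose (median -0.54), with 9 lower without siRNA2 and 4 without siCtrl replicate 1. SGOL2, which protects centromeric cohesion, fell from 22.8 and 20.6 RPKM to 4.62 and 5.25 (change -2.12), and AURKB, the kinase of the chromosomal passenger complex, from 20.2 and 18.4 to 8.31 and 8.57. Of 40 S phase markers, 4 fell (10%) and 0 rose (median -0.42). Without any 1 of siCtrl replicate 1, siCtrl replicate 2 or siRNA1 that count was 0. Of 20 replication licensing genes 4 fell (20.0%, median -0.35; 1 without siCtrl replicate 1 or without siRNA1), among them DBF4, which activates the CDC7 kinase, with 20.1 and 18.3 RPKM against 6.23 and 9.53. MCM6, a subunit of the replicative helicase, had 9.11 and 8.12 RPKM against 3.13 and 2.85. Of 24 G1 cyclins and CDK inhibitors, 0 fell and 3 rose (12.5%), and without siRNA2 2 fell and 2 rose. These were CDKN1A, which encodes p21 (9.26 and 9.93 against 17.6 and 33.6 RPKM), CDKN2B, which encodes p15 (12.3 and 11.2 against 28.2 and 21.7 RPKM), and the G1 cyclin CCND3 (10.6 and 10.9 against 36.2 and 25.7 RPKM).

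**Figure D3:**
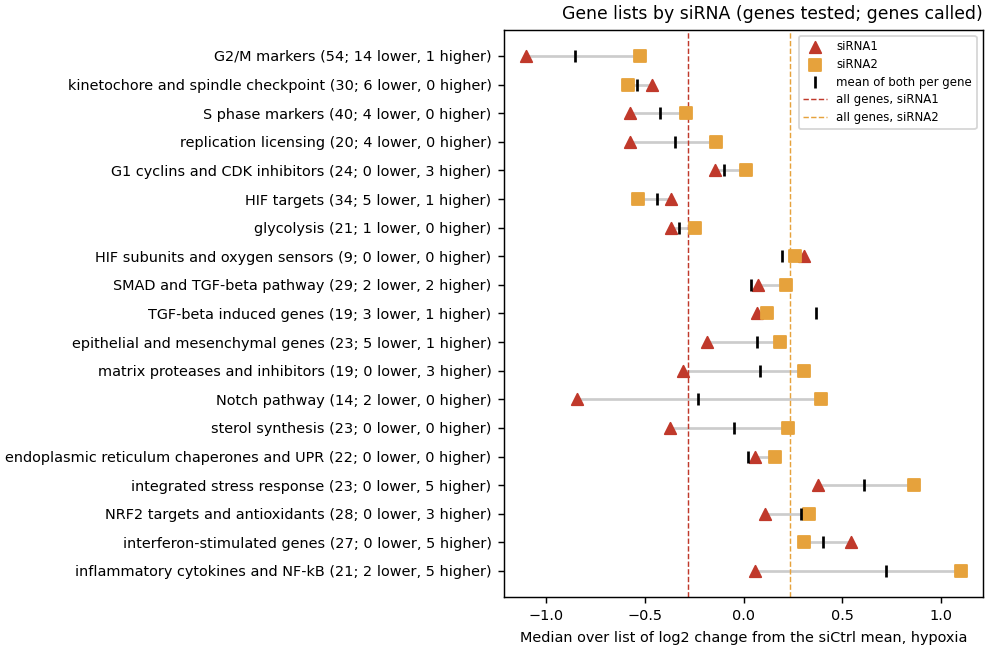
Median over each gene list of the log2 change from the siCtrl mean in hypoxia, with a triangle for siRNA1, a square for siRNA2 and a bar for the mean of both per gene, beside the medians of all genes for each siRNA (dashed lines at -0.28 and 0.23). G2/M markers (-1.10 and -0.53) lie left of both dashed lines and the integrated stress response (0.38 and 0.86) lies right of both.

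Targets of HIF gave more decreases than increases. Of 34 HIF targets tested 5 fell (14.7%) and 1 rose, beside 3.95% and 3.55% of all genes, with a median of -0.44. The median was -0.37 with siRNA1, where that of all genes was -0.28, and -0.53 with siRNA2, where that of all genes was 0.23. The list thus stood apart from the other genes mainly in the siRNA2 library. With upper-quartile scaling 3 fell, with median centring 2, and with 1 hypoxic library left out between 2 (without siCtrl replicate 1) and 6 (without siRNA1, and without siRNA2).

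ANGPTL4, an inhibitor of lipoprotein lipase induced by hypoxia, changed most in this list. It had 202 and 192 RPKM with siCtrl, 25.2 with siRNA1 and 46.9 with siRNA2 (change -2.52, SE 0.39, limma adjusted p = 0.0574). VEGFA, the main angiogenic growth factor, had 238 and 205 RPKM against 94.8 and 55.7. CA12, a carbonic anhydrase at the cell surface, had 54.2 and 47.0 against 8.46 and 19.3. The groups did not overlap in these 3 genes. P4HA2, a prolyl hydroxylase for collagen, had 164 and 135 RPKM with siCtrl, 94.7 with siRNA1 and 32.3 with siRNA2, and TMEM45A had 158 and 145 against 75.6 and 73.2. SLC2A3, a glucose transporter, was the gene that rose, from 1.44 and 1.79 RPKM to 8.41 and 4.06. ADM, the vasodilator peptide adrenomedullin, had 50.1 and 47.1 RPKM against 29.5 and 30.2 and was not called (change -0.70, limma adjusted p = 0.536).

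HIF binds ACGTG or GCGTG within hypoxia response elements. These letters on either strand occurred in 23 of 28 matched HIF target windows (82.1%) and also in 72.7% of the G2/M windows. They occurred in 54.8% of 398 matched genes that fell, below the 63.4% of 9936 matched genes tested. Of all promoters 48.4% held them. The 250 bases before the start of ANGPTL4 (plus strand of chromosome 19, 8363905 to 8364154, GRCh38.p14) and CA12 (minus strand of chromosome 15, 63381847 to 63382096), the 2 called HIF targets of smallest P that hold them, are shown with the core in capitals. In both it begins 234 bases before the gene start.
ANGPTL4: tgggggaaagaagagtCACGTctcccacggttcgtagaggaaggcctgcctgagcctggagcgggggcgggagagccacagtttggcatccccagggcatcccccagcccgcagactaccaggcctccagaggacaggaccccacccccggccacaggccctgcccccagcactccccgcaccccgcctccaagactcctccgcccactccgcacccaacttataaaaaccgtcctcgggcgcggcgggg
CA12: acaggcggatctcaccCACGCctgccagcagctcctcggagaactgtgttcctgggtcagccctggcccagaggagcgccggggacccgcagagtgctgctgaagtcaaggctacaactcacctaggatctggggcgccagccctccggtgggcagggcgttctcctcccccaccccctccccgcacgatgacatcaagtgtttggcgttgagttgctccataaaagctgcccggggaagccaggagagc

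The median change of HIF targets on silencing had opposite signs at the oxygen levels. For the 34 genes it was 0.41 in normoxia and -0.44 in hypoxia, against 0.13 and -0.03 for all genes. In normoxia 3 of the 34 fell and 4 rose. An interaction, the change in hypoxia minus the change in normoxia, was called lower for 7 of the 34 genes and higher for 0, where 85 of all genes (0.696%) were called lower and 30 (0.246%) higher. No interaction of any gene had a limma adjusted p under 0.05. Of 12214 genes 126 had an unadjusted P under 0.05, fewer than that limit alone would give by chance. This fit does not use that each siRNA was given at both oxygen levels. With a term for the siRNA, 3 interactions passed an adjusted p under 0.05 (limma) and 13 of the 34 HIF targets had a called interaction. Over all genes that term gave 265 lower and 115 higher interactions in place of 85 and 30, so the background rose as well. The 7 were ANGPTL4, TMEM45A and ADM and, named after their values were seen, BHLHE40, LOX, MXI1 and VLDLR. Leaving out 1 library gave between 4 and 13 such genes. The count was 4 without siCtrl replicate 1 in hypoxia or in normoxia, where 42 and 33 of all genes were called lower. It was 13 without siRNA2 in normoxia, where 233 of all genes were. With median centring it was 4, beside 59 of all genes.

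In ANGPTL4 silencing left 3.21 and 4.58 RPKM in normoxia, where siCtrl had 3.22 and 1.87, while hypoxic siOC2 libraries were far below the controls (interaction -3.14, SE 0.56, limma P of 0.000431). ADM had 2.36 and 2.11 RPKM with siCtrl in normoxia and 6.45 and 2.56 with siOC2 (interaction -1.54). LOX, the collagen cross-linking enzyme, had 1.01 and 0.701 RPKM against 2.19 and 1.25 in normoxia, and 10.9 in both siCtrl libraries against 5.69 and 6.59 in hypoxia (interaction -1.72). In VLDLR, a lipoprotein receptor, the hypoxic groups overlapped (6.02 and 5.74 against 4.46 and 6.91 RPKM). The normoxic values were 1.05 and 1.16 against 2.54 and 2.18, so its interaction of -1.11 came from the normoxic side.

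**Figure D4:**
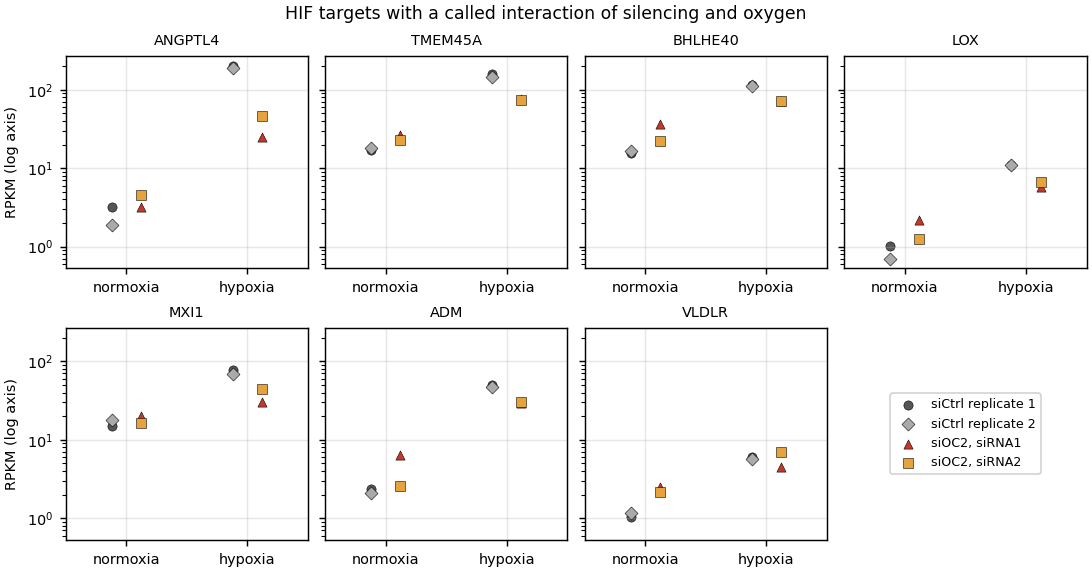
RPKM (shared log axis) in all 8 libraries of the 7 HIF targets with a called interaction, with normoxia on the left and hypoxia on the right of each panel. Hypoxic siOC2 libraries lie below both siCtrl libraries in 6 of the 7 genes, whereas VLDLR overlaps there. In normoxia both siOC2 libraries lie above both controls in ADM, BHLHE40, LOX, TMEM45A and VLDLR.

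Outside the HIF list, SLAMF9, a surface receptor of the SLAM family, showed the strongest interaction by P (-3.64, limma P of 3.09e-05, adjusted p = 0.377). Its RPKM was 46.1 and 51.4 with siCtrl and 8.64 and 12.3 with siOC2 in hypoxia, but 0.957 and 1.42 against 3.34 and 3.21 in normoxia, so that the groups were separate in both and in opposite order. TREM1, an activating receptor of myeloid cells, had 43.9 and 41.4 RPKM against 15.9 and 33.6 in hypoxia, and 2.19 and 3.84 against 11.8 and 10.4 in normoxia. SAMD12 had the opposite interaction (2.34), with 6.76 and 3.28 RPKM against 7.05 and 9.13 in normoxia. HAS2, a hyaluronan synthase, overlapped between groups in hypoxia (21.7 and 18.0 against 15.5 and 24.5 RPKM) and fell in normoxia (22.9 and 27.3 against 6.58 and 10.8 RPKM).

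Most hypoxic calls pointed the same way in normoxia, which has its own controls. Of the 482 genes that fell in hypoxia, 456 were below 0 in normoxia too, with a median of -0.85, where 38.7% of all genes were below 0 and their median was 0.13. Of the 434 that rose, 418 were above 0, with a median of 1.09. Called in both were 148 genes that fell (30.7% of the hypoxic and 76.3% of the 194 normoxic calls) and 205 that rose (47.2% of the hypoxic and 46.4% of the 442 normoxic calls, the latter 3.62% of all genes). The same siRNAs were used at both oxygen levels, so the normoxic libraries are no check on effects of an siRNA other than on ONECUT2.

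Of 21 glycolysis genes 1 fell (4.76%) and 0 rose (median -0.33), beside 3.95% and 3.55% of all genes. It was PGK1 (0 fell without siCtrl replicate 1 in hypoxia), phosphoglycerate kinase, with 112 and 87.8 RPKM against 51.5 and 43.9, and with upper-quartile scaling it too was not called. Of the 21 glycolysis genes 18 were below 0, where 6400 of all 12214 genes were. In 13 of the 21 both siOC2 libraries were below both siCtrl libraries, which held for 19.6% of all genes. Their median was -0.37 with siRNA1 and -0.25 with siRNA2, against -0.28 and 0.23 for all genes. The oxygen sensing genes themselves showed 0 calls among 9 tested. HIF1A, the oxygen-regulated subunit, had 241 and 185 RPKM with siCtrl, 246 with siRNA1 and 266 with siRNA2 (change 0.28, SE 0.30), and the groups differed by less than that error.

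The TGF-beta pathway, which SMAD3 serves as a receptor-activated transcription factor, gave calls in both directions. SMAD3 (chromosome 15, 67356101 to 67487511, plus strand, GRCh37) had 82.4 and 77.1 RPKM with siCtrl, 42.3 with siRNA1 and 39.0 with siRNA2. The groups were clearly separate, but the change of -0.97 (SE 0.29, limma P of 0.00916, adjusted p = 0.229) fell just short of the 2-fold limit. Of 29 SMAD and TGF-beta pathway genes 2 fell and 2 rose (6.90% each, beside 3.95% and 3.55% of all genes). Without siCtrl replicate 1 in hypoxia 0 fell, without siCtrl replicate 2 0 rose, and without siRNA2 4 rose. INHBA, which encodes activin A, fell from 13.4 and 15.9 RPKM to 2.75 with siRNA1 and 9.95 with siRNA2, and SMAD9, a SMAD of the BMP branch, from 6.10 and 4.01 to 2.35 and 2.43. SMURF2, a ubiquitin ligase that targets SMADs and receptors, rose from 60.0 and 47.2 RPKM to 164 and 99.0, and the pseudoreceptor BAMBI from 1.80 and 1.43 to 10.3 and 2.63. Of 19 TGF-beta induced genes 3 fell, namely LTBP3, ANGPTL4 and the basement membrane collagen COL4A1 (change -1.01). The 1 that rose was the AP-1 subunit JUNB (1.17). The list median of 0.37 was 0.07 with siRNA1 and 0.12 with siRNA2, against -0.28 and 0.23 for all genes. Without siRNA1 4 fell and 4 rose, and without siRNA2 2 fell and 3 rose.

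Stress response genes were among those that rose. Of 23 genes of the integrated stress response, which ATF4 drives when translation is restrained, 5 rose and 0 fell (21.7% beside 3.55% of all genes), with a median of 0.61. With siRNA1 the median was 0.38 and with siRNA2 0.86, against -0.28 and 0.23 for all genes. CHAC1, which degrades glutathione, rose from 0.509 and 0.766 RPKM to 10.3 and 5.03 (change 3.33, limma adjusted p = 0.0502). Asparagine synthetase, ASNS, rose from 4.98 and 4.74 to 22.8 and 14.4 RPKM. SESN2, an inhibitor of mTORC1 signalling, rose from 1.08 in both controls to 4.02 and 4.51. The subunits of the cystine transporter rose together, SLC7A11 from 1.65 and 1.05 RPKM to 4.58 and 5.81 and SLC3A2 from 26.2 and 21.8 to 48.5 and 61.2. ATF4 mRNA itself read 79.5 and 60.1 RPKM with siCtrl, 158 with siRNA1 and 48.6 with siRNA2, so that its siOC2 libraries lay on either side of the controls. In normoxia 10 of the 23 genes rose, where 3.62% of all genes rose. The hypoxic count changed when 1 hypoxic library was left out, as did that of all genes. The list median was 0.64 without siCtrl replicate 1 and 0.49 without siCtrl replicate 2, where that of all genes was 0.06 and -0.13.

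In the related NRF2 and antioxidant list 3 of 28 genes rose (10.7%) and 0 fell (median 0.29), beside 3.55% and 3.95% of all genes. GPX2, a glutathione peroxidase, had 1.49 and 2.47 RPKM with siCtrl, 87.9 with siRNA1 and 56.8 with siRNA2 (change 5.13, SE 1.15, limma adjusted p = 0.128). In normoxia its siCtrl libraries read 1.39 and 31.9 RPKM, so the level without silencing was itself variable. AKR1C1, an aldo-keto reductase, rose from 0.688 and 0.471 RPKM to 4.09 and 1.38. Unlike GPX2, AKR1C1 entered the test through siOC2 libraries alone. Without siCtrl replicate 2 in hypoxia 2 genes of this list rose, and without siRNA1 2 fell beside 3 that rose. Of 22 endoplasmic reticulum chaperones and genes of the unfolded protein response 0 were called in either direction, and 0 had an unadjusted limma P under 0.05.

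Inflammatory genes moved in both directions. Of 21 cytokine and NF-kB genes 5 rose (23.8%) and 2 fell (9.52%), beside 3.55% and 3.95% of all genes. The median of 0.72 was 0.06 with siRNA1 and 1.10 with siRNA2, against -0.28 and 0.23 for all genes. CSF3, the granulocyte growth factor, rose from 0.526 and 0.617 RPKM to 2.88 and 4.02, and the chemokine CCL2 from 2.96 and 1.69 to 11.4 and 13.4. IL6 rose from 1.61 and 2.45 RPKM to 8.07 and 8.16. NFKBIZ, a nuclear regulator of NF-kB target genes, rose from 14.6 and 12.4 RPKM to 40.8 and 53.2, and NFKBIA, an inhibitor of NF-kB, from 117 and 111 to 505 with siRNA1 and 179 with siRNA2. IL1B, by far the most abundant of these cytokines, fell from 543 and 520 RPKM to 228 and 197, and LIF, named after its values were seen, fell from 50.4 and 50.2 to 20.7 and 22.99. The count that rose changed when 1 hypoxic library was left out, as did that of all genes. The list median was 0.85 without siCtrl replicate 1 and 0.74 without siCtrl replicate 2, where that of all genes was 0.06 and -0.13.

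Interferon-stimulated genes gave 5 increases and 0 decreases among 27 tested (18.5% beside 3.55%; median 0.40). MX1, an antiviral GTPase, had 0.992 and 0.287 RPKM with siCtrl, 13.3 with siRNA1 and 2.73 with siRNA2. OAS1, which makes the activator of RNase L, had 1.54 and 0.886 against 6.92 and 2.70, and the RNA sensor DDX58 (RIG-I) had 7.29 and 6.46 against 17.5 and 11.8. OAS3 and IFI44L rose by 1.34 and 1.36. In each of these 5 genes the siRNA1 library was the higher of the siOC2 libraries. Without siRNA1, 2 genes of the list rose, and without siRNA2 7 did.

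Epithelial and mesenchymal genes fell from both classes. Of 23 tested, 5 fell (21.7%) and 1 rose (4.35%), beside 3.95% and 3.55% of all genes, with a median of 0.07. Without siRNA1 3 fell and 5 rose. The intermediate filament gene VIM, a mesenchymal marker, had 353 and 328 RPKM with siCtrl, 30.2 with siRNA1 and 165 with siRNA2. The epithelial keratins KRT19 (187 and 177 against 48.3 and 67.6 RPKM) and KRT7 (302 and 272 against 107 and 119 RPKM) fell too, as did the tight junction gene CLDN7 (3.59 and 3.79 against 1.31 and 1.93 RPKM) and the mesenchymal transcription factor TWIST1 (4.68 and 3.72 against 1.67 and 2.27 RPKM). CLDN1, another tight junction gene, rose from 0.234 and 0.852 RPKM to 4.57 and 20.7 (change 4.13, limma adjusted p = 0.0768), and it was under 1 RPKM in all 4 siCtrl libraries, so it entered the test through siOC2 libraries alone. Of 19 matrix proteases and inhibitors 3 rose and 0 fell, with MMP1 (0.275 and 0.0735 against 1.82 and 2.47 RPKM), MMP13 and ADAMTS1. MMP13 reached 6.43 RPKM with siRNA1 and 0.830 with siRNA2. MMP1 and MMP13 were under 1 RPKM in all 4 siCtrl libraries and entered the test through siOC2 libraries alone, so 1 increase, that of ADAMTS1, is left without them. Without siRNA2 3 fell and 5 rose, without siRNA1 2 fell and 2 rose, and without siCtrl replicate 2 in hypoxia 1 rose.

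Neuroendocrine genes could be followed for 11 of 28 list members, and 17 stayed below the limit on low values. Of the 11, 0 fell and 2 rose (18.2%), beside 3.95% and 3.55% of all genes. Without siCtrl replicate 2 in hypoxia 0 rose, without siRNA1 4 rose, and without siRNA2 3 fell and 1 rose. The 2 were MYCN, a MYC family oncogene, with 0.234 and 0.0812 RPKM against 0.904 and 2.47, and the homeobox factor PROX1, with 0.893 and 0.859 against 4.07 and 1.52. MYCN was under 1 RPKM in all 4 siCtrl libraries and entered the test through siOC2 libraries alone, so its increase adds nothing to the count. NCAM1 read 6.35 and 4.16 RPKM with siCtrl, 1.30 with siRNA1 and 14.0 with siRNA2, and PEG10 95.2 and 75.1 against 24.8 and 101, so in both genes the siRNAs lay on opposite sides of the controls. Among 10 endodermal factors the pioneer factor FOXA1 fell (19.8 and 17.5 against 6.16 and 12.1 RPKM), as did HNF4G (3.91 and 4.56 against 1.72 and 2.28), and PROX1 was the 1 that rose. Without either siCtrl replicate in hypoxia 1 of them fell and 0 rose, and without siRNA2 4 fell and 2 rose. Of 14 Notch pathway genes the receptor NOTCH2 (24.96 and 19.6 against 8.18 and 9.56 RPKM) and the glycosyltransferase LFNG (change -1.97) fell (14.3%, beside 3.95% of all genes), and 0 rose. Without siRNA2 6 fell and 1 rose, and without siRNA1 1 fell and 1 rose.

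The siRNAs differed from each other in many genes, and part of these differences recurred in normoxia. Without use of the controls, siRNA2 was over 2-fold above siRNA1 in hypoxia for 3403 genes and over 2-fold below it for 574, and 83.9% and 86.9% of these lay on the same side in normoxia, in libraries of their own. Over 2-fold in normoxia as well were 940 (27.6%) and 320 (55.7%) of them, beside 9.63% and 7.02% of all genes. After median centring the counts were 1732 and 1347, and 89.1% and 87.6% of these lay on the same side. Over 2-fold in normoxia were 740 (42.7%) and 552 (41.0%) of them, beside 9.29% and 7.35% of all genes. The 2 hypoxic siCtrl libraries differed over 2-fold in 135 genes in 1 direction and 281 in the other. In normoxia 54.1% and 38.8% of these lay on the same side. Over 2-fold there were 25 (18.5%) and 22 (7.83%) of them, beside 1.91% and 0.942% of all genes.

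The genes that differed most at both oxygen levels were found by the smaller of the 2 differences and are given as a description. TAGLN and ACTG2, proteins of the contractile actin cytoskeleton, were high with siRNA1. TAGLN had 33.8 RPKM with siRNA1 and 0.977 with siRNA2 in hypoxia, and 30.9 and 0.857 in normoxia, beside controls of 0.466 to 1.35 RPKM in all 4 siCtrl libraries. ACTG2 had 17.3 RPKM with siRNA1 and 0.435 with siRNA2 in hypoxia. UGDH, which makes UDP-glucuronate, was near its controls with siRNA1 (36.6 beside 27.1 and 18.8 RPKM) and far below them with siRNA2 (2.83). NEDD4, a ubiquitin ligase, lay above its controls with siRNA1 (64.0 beside 22.4 and 17.0 RPKM) and below them with siRNA2 (4.51).

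Other genes were high with siRNA2. FABP4, a fatty acid carrier, had 168 RPKM with siRNA2 and 5.40 with siRNA1 in hypoxia, beside controls of 2.09 and 2.75, and 134 against 9.03 in normoxia. IL1RL1, the receptor of interleukin-33, had 136 RPKM with siRNA2 and 3.22 with siRNA1, beside controls of 16.2 and 15.5. The cytokine gene IL37 had 21.9 RPKM with siRNA2, 1.10 with siRNA1 and 1.03 and 0.650 with siCtrl. In hypoxia FABP4 was called as a gene that rose although its 2 siRNAs differed widely, and the other genes named here for a difference between the siRNAs were not called.

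**Figure D5:**
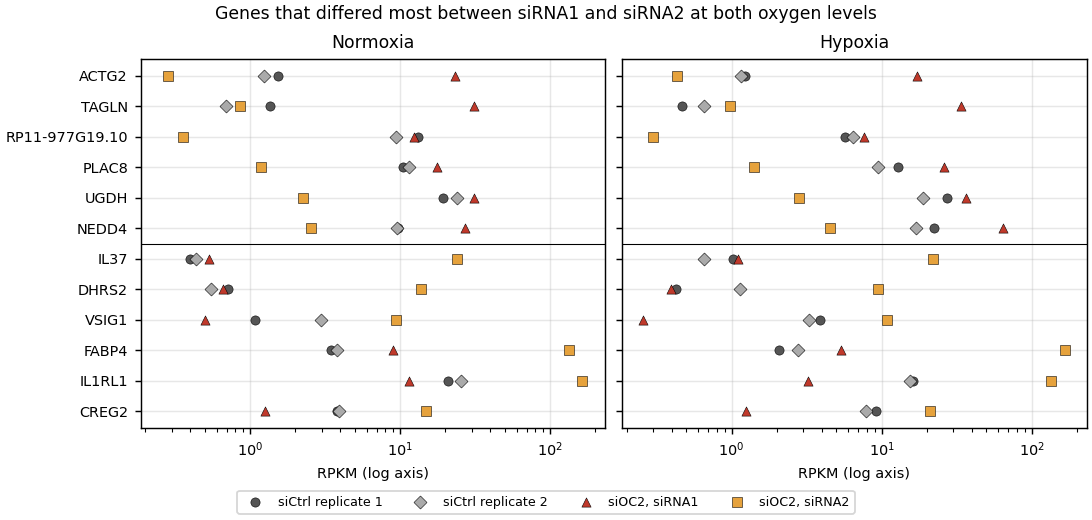
RPKM (log axis) in normoxia and in hypoxia of the 6 genes highest with siRNA1 against siRNA2 (above the line) and the 6 highest with siRNA2 against siRNA1 (below the line). In each gene the order of the siRNA1 and siRNA2 points is the same at both oxygen levels, as the selection required, and for TAGLN the siRNA2 point (0.977 RPKM in hypoxia) lies near the controls while the siRNA1 point (33.8) lies far above them.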

How the data were processed

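Stranded mRNA libraries of PC3 cells were sequenced by the authors. Per the labels and the methods, trimmed reads were mapped with STAR 2.4.2a to hg19, and the deposited RPKM per gene came from Cufflinks 2.1.1. RPKM removes gene length and library size but not a shift in composition. No further scaling was applied. log2(RPKM + 0.1) was tested with limma 3.58.1 (R 4.3.3), 2-sided, over 4 groups of 2 libraries with a mean-variance trend and no block, and p-values were adjusted by Benjamini-Hochberg across the 12214 genes. The script was tested on simulated data. For a single gene an exact test of 2 against 2 cannot go below p = 0.33.

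The members and the 31 gene lists were chosen with earlier results of these data known. Named are the ONECUT genes, SMAD3, ADM and ANGPTL4, genes with an adjusted p under 0.05, the 12 of smallest P in each direction (groups apart, at least 5 RPKM, no exact 0), up to 6 called members of largest change per list, and the 6 interactions of smallest P in each direction. Genes that differ between the siRNAs and uncalled list members were named after their values were seen. Promoters are from RefSeq (GRCh38.p14). Alternatives were scaling, pseudocount, filter, block and leaving out each library.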

Additional observations from a re-analysis of the deposited data

Results flagged for a closer look

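The effect of silencing differed between hypoxia and normoxia in 17 of the named genes, by limma's interaction at a fold over 2 and an unadjusted P under 0.05, and none of these passed an adjusted p of 0.05. The difference (hypoxia minus normoxia, log2) was -3.64 for SLAMF9, -3.14 for ANGPTL4, -2.77 for TREM1, -2.32 for SCNN1G, -2.06 for C10orf10, -1.59 for UCN2, -1.55 for TUBGCP2, -1.54 for ADM, -1.53 for TMEM45A, -1.23 for IL1B and -1.01 for NOX5. It was positive for MYO18A at 3.30, TXNRD2 at 2.41, SAMD12 at 2.34, PDAP1 at 2.16, HAS2 at 1.54 and RP11-500M8.7 at 1.49. NOX5 and UCN2 fell at both oxygen levels, further in hypoxia, while SLAMF9 and TREM1 rose in normoxia (changes of 1.41 and 1.89). C10orf10 had 81.7 and 77.6 RPKM with siCtrl against 10.05 and 13.8 with siOC2 in hypoxia, and 3.72 and 5.28 against 3.78 and 1.95 in normoxia. In SCNN1G, a subunit of the epithelial sodium channel, the hypoxic groups overlapped (12.5 and 15.5 against 7.80 and 17.1 RPKM) and the normoxic groups did not (1.10 and 0.878 against 4.50 and 4.26). PDAP1 and TXNRD2 had a wide spread between normoxic libraries of 1 group, with 23.2 and 64.7 RPKM of PDAP1 in the siOC2 libraries and 1659 and 843 RPKM of TXNRD2 in the siCtrl libraries.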

How the results depend on the processing

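The 482 genes that fell and 434 that rose became 6 and 5 at an adjusted p under 0.05 (limma), 76 and 49 at that limit with upper-quartile scaling, and 272 rose with a pseudocount of 1 and 252 with at least 5 RPKM in 2 libraries. Leaving out 1 library gave 266 (siCtrl hypoxia replicate 1) to 1891 (siRNA2) that fell and 212 (siCtrl hypoxia replicate 2) to 1118 (siRNA1) that rose. A term for the siRNA shared by both oxygen levels, chosen after seeing the data, gave 750 and 634, or 757 and 581 at an adjusted p under 0.05 without a fold limit. It assumes that the siRNAs differ alike in hypoxia and normoxia. The cause of these shifts was not tested.

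Between hypoxic siCtrl and siOC2, same-numbered libraries did not deviate together (correlation across genes -0.0051). Between normoxic and hypoxic siOC2, where the number is the siRNA, they did (0.618). With the replicate number as a block 611 fell and 494 rose, and 63 and 39 at an adjusted p under 0.05.

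The 85 lower and 30 higher interactions were 172 and 110 without a filter, 51 and 13 with at least 5 RPKM, 265 and 115 with the siRNA term, and 61 higher with either upper-quartile scaling or median centring and 47 without the trend. At an adjusted p under 0.05 there were 0 and 0, also with upper-quartile scaling or the block, and 3 and 0 with the siRNA term. Leaving out 1 library gave 33 to 1421 lower (33 without siCtrl normoxia replicate 1, 42 and 41 without siCtrl hypoxia replicate 1 and 2, 1421 and 233 without siRNA2 in hypoxia and in normoxia) and 11 to 155 higher.

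ONECUT2 passed the call with upper-quartile scaling (-1.36), median centring (-1.36), and at -1.39 without a filter, without the trend or with the siRNA term, and without siRNA2 in hypoxia (-1.63). Without 1 library it ranged from -1.63 to -1.15. HAS2, not called in hypoxia (-0.02), read 0.044 with upper-quartile scaling and 0.013 with median centring, and -0.35 to 0.31 without 1 library. SCNN1G read -0.83 to 0.29. Of 96 named called genes none changed direction, but 28, 28 and 32 lost the call without siCtrl replicate 1, siCtrl replicate 2 or siRNA1 in hypoxia, and 85 at an adjusted p under 0.05. Depth limits genes of low RPKM most, and 11 called genes have an exact 0 in a hypoxic library.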

Other observations

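Lists of constitutive processes held few calls, beside 3.95% of all genes that fell and 3.55% that rose. Of 76 cytosolic ribosomal protein genes 1 fell and 0 rose (median -0.11), and the 1 was RPL22, with 255 and 208 RPKM with siCtrl, 52.7 with siRNA1 and 147 with siRNA2. Without siCtrl replicate 1 or siRNA1 in hypoxia 0 of them fell, and without siRNA2 5 did. Of 38 complex I subunits, 23 sterol synthesis genes, 5 alpha-arrestins and 4 metallothioneins 0 were called, with medians of 0.07, -0.05, 0.35 and -0.04. An unadjusted limma P under 0.05 was reached by 2 of the sterol synthesis genes and by 0 of the others. Of 14 fatty acid synthesis genes 1 fell, the desaturase FADS1 (change -1.68).

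Of 6 genes that mark PC3 cells, 3 fell, namely KRT19, VIM and CD44, the hyaluronan receptor, which read 661 and 526 RPKM with siCtrl, 171 with siRNA1 and 488 with siRNA2. EPCAM read 7.03 and 7.40 RPKM against 3.70 and 19.1, so the siRNAs lay on opposite sides of the controls. KRT15, the 1 basal marker tested of 4, read 13.3 and 14.0 RPKM with siCtrl, 2.03 with siRNA1 and 15.2 with siRNA2. Of 8 luminal markers 4 were tested and 0 called.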
